A study of Homo sapiens with 28 samples.

Results

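DNA replication and G1/S genes were followed across RNA-seq libraries of 2 MLL-rearranged leukemia cell lines in which MBNL1, an RNA-binding splicing regulator, was knocked down. The 42 genes, of 22391 in the expression table, were listed by name for their role in copying DNA or in entry into S phase, and matched by Ensembl gene identifier. Their splicing was followed in 273 of 100814 splicing events, which covered 38 of the 42 genes (none for MCM2, PCNA, TYMS or TK1). The 28 libraries came from MOLM13 cells (MLL-AF9 fusion) and MV4;11 cells (MLL-AF4 fusion), both acute myeloid leukemia lines. All cells carried a lentiviral hairpin and had been selected with puromycin: shNT, a non-targeting control, or shMBNL1-64 or shMBNL1-65, against MBNL1. In MOLM13, shNT and shMBNL1-64 were sampled after 72 h of selection (3 libraries each) and, in another set, at 12 days (3 each). Per the study's methods, the 12-day set was a longer knockdown with shNT controls of its own. The 72 h count selection, whereas the paper counts the 12 days from knockdown. In the same line, shMBNL1-65 (4 libraries) was compared with a second shNT set of 3. In MV4;11, shNT, shMBNL1-64 and shMBNL1-65 had 3 libraries each. For shMBNL1-65 in MOLM13 and for MV4;11 the labels give no day of harvest. Both lines are long-established cultures, so a group holds replicate libraries of a line and not different patients.

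Before a cell copies its DNA, the origin recognition complex (ORC), CDC6 and CDT1 load the ring of MCM2 to MCM7 onto chromatin. At the start of S phase, MCM10, CDC45 and the GINS complex turn that ring into an active helicase. Polymerases with their clamp, PCNA, and clamp loader, RFC, then copy both strands, FEN1 and LIG1 join the lagging strand, and enzymes such as ribonucleotide reductase (RRM1 and RRM2), TYMS and TK1 supply the building blocks. Many of these genes are transcribed in a burst at the G1/S boundary under E2F transcription factors, so their RNA level in a culture is known to follow the share of cells that are cycling.

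E2F factors bind short sites close to the start of such genes, and the members were first looked at for these letters. The letters searched for were TTTCCCGC and its variants TTTGGCGC and TTTCGCGC, together with TTTGCCGC, on either strand and without regard to overlap in RefSeq promoters (GRCh38.p14), from 250 bases before to 50 bases after each start. Promoter entries existed for 38 members, and MCM4, MCM5, CCNE2 and GINS4 had none. Of their 51 promoters 21 held such a sequence (41.2%), against 1164 of all 35116 promoters (3.31%). For a list of 20 genes of G2/M and mitosis, used below for comparison, it was 4 of 17 promoters (23.5%). The letters CCAAT, on either strand, were in 56.9% of the members' promoters, in 88.2% of those of the G2/M list and in 34.6% of all. The 70 bases before the start are shown for 5 members with an E2F sequence there and for TK1, the member with the largest fall in MOLM13. Capitals mark the E2F sequence and CCAAT, read on either strand.
PCNA (chr20:5126623-5126692, minus strand): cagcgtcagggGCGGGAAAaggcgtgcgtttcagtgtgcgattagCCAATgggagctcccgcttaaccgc
RFC3 (chr13:33818079-33818148, plus strand): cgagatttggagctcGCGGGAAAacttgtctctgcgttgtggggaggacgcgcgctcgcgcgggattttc
TYMS (chr18:657583-657652, plus strand): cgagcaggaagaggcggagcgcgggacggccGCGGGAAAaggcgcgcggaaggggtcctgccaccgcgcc
CDT1 (chr16:88803719-88803788, plus strand): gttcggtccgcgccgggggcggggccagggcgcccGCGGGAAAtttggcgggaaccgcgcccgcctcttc
E2F1 (chr20:33686386-33686455, minus strand): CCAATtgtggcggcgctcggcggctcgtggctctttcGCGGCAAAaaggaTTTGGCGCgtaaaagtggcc
TK1 (chr17:78187053-78187122, minus strand): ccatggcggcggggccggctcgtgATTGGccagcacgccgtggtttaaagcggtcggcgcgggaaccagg
PCNA, RFC3, TYMS and CDT1 shared the same 8 letters in this stretch, and E2F1 held a pair of other forms. TK1 held none of the E2F letters searched for in this window, only CCAAT on the other strand. PCNA and TK1 have 2 entries each, of which the one with more matches is shown.

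The targeted gene was lower in every knockdown group. With shMBNL1-64, MBNL1 fell to 14.4% of the shNT mean in MOLM13 after 72 h, to 16.7% at 12 days and to 16.6% in MV4;11. With shMBNL1-65 it stood at 67.3% in MOLM13 and 53.3% in MV4;11, so the hairpins differ in depth of knockdown. Sequencing depth, read from the steps between low expression values, ran from 28% to 100% of the deepest library, with a median of 59.6%. The shallowest were replicate 3 of shMBNL1-64 (28%) and replicate 3 of shNT (32.5%) in MOLM13 after 72 h. The blood marker PTPRC was at 26.0 RPKM or more in every library, and of 8 defining genes of other cell types 7 stayed at 0.445 RPKM or less, among them T cell CD3E, while fibroblast COL1A1 reached 2.76 RPKM. CD14, a monocyte gene on the myeloid list, was at 0.108 RPKM or less.

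Some libraries stood apart from others of their group. In MOLM13 after 72 h, replicate 3 of both shNT and shMBNL1-64 had a mean member level of 3.60 and 3.00 on the log2(RPKM + 1) scale, where replicates 1 and 2 lay at 5.04 in shNT and at 4.64 in shMBNL1-64. The mean of the G2/M list was also lower in those libraries, at 3.04 and 2.17 against 4.29 to 4.83. In the set of shMBNL1-65 in MOLM13, shNT library a and replicates 1 and 2 of shMBNL1-65 resembled each other across all genes (correlations of 0.47 to 0.51 between deviations from the group means), and so did shNT libraries b and c and replicates 3 and 4 of shMBNL1-65 (0.26 to 0.69, apart from -0.11 between b and c). This division crosses the groups, and the letters stand in for replicate numbers that the column names do not give. In MV4;11, shNT replicate 3 had a member mean of 3.67, close to 3.77 and 3.76 in the others, but single members differed, with CDT1 at 8.93 RPKM against 2.94 and 4.52. No pair of libraries within a group was as close as sampling noise alone would give.

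**Figure D1:**
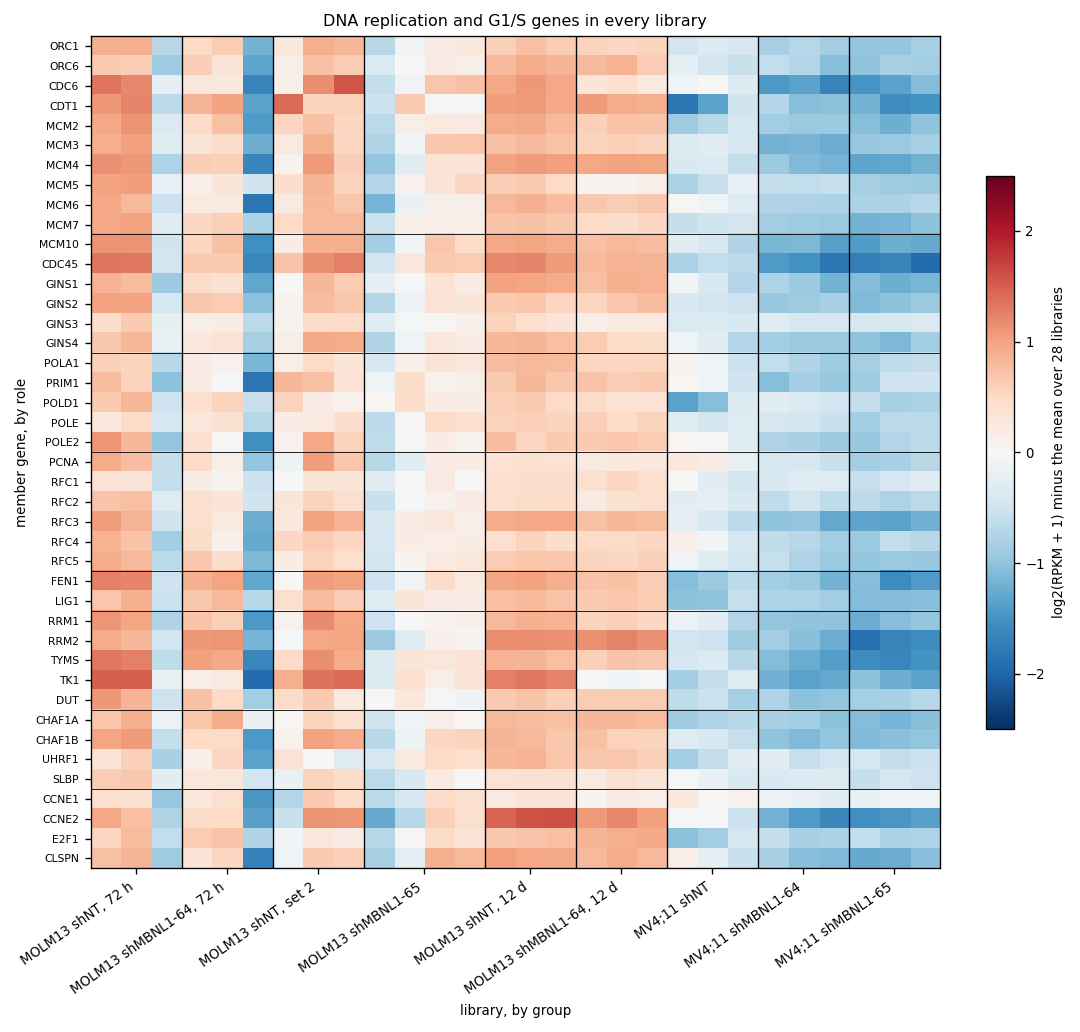
Expression of the 42 members (vertical axis, by role) in the 28 libraries (horizontal axis, by group), as log2(RPKM + 1) minus each member's mean over all libraries. Replicate 3 of both MOLM13 72 h groups and the MV4;11 groups are blue across most members, and the MV4;11 knockdown libraries are bluer than their shNT libraries.

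The members rose and fell together across libraries. For each member, the correlation of log2(RPKM + 1) with the mean of the other 41 over the 28 libraries had a median of 0.96 and was lowest for CCNE1, a cyclin E (0.65), and POLD1, the catalytic subunit of polymerase delta (0.83). These libraries share lines and groups, so the values describe the set and carry no test. RPKM is scaled by gene length, so levels may be set side by side between genes. Mean RPKM over the 12 shNT libraries ran from 1.07 for GINS3 to 335 for PCNA. The highest in each role were MCM7 among the licensing factors (107), CDC45 among the activators (37.8), POLD1 among the polymerases (65.5), LIG1 over FEN1 (32.3 against 28.9), TYMS in nucleotide supply (107), the histone mRNA-binding protein SLBP in the chromatin group (58.8) and CCNE2, the other cyclin E, among the G1/S regulators (14.6).

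The most members were called in MV4;11, where genes of every role but lagging strand joining fell with either hairpin. In bulk RNA, fewer cycling cells and less RNA per cycling cell cannot be told apart, here and in the comparisons that follow. A gene was called at a limma p of 0.01 or less with at least a 1.5-fold difference on the log2(RPKM + 1) scale. With shMBNL1-64, 16 of the 41 members tested were called lower and none higher, against 2.62% of all 10177 genes called lower. With shMBNL1-65, 20 of 41 were called lower and none higher, against 1.85% of 10197. GINS3, at 0.322 to 0.431 RPKM in this line, was below the limit for testing. At an adjusted p under 0.05, with no limit on fold, it was 16 members with shMBNL1-64 and 17 with shMBNL1-65, against 3.83% and 1.11% of genes. The median member difference was -0.47 and -0.57, where the median over all genes tested was 0.01 and 0.06. Both comparisons use the same 3 shNT libraries, so they are not independent: 14 members were called in both, 87.5% of those called with shMBNL1-64 and 70% of those with shMBNL1-65. Without shNT replicate 3, 21 and 22 members were called. In a single fit over all 28 libraries, which takes the spread from every group, 1 and 0 were called. For these alternative fits the share of all genes called was not computed.

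CDC6, which loads the MCM ring, fell furthest among the licensing factors in MV4;11. It was at 12.2, 13.5 and 10.2 RPKM with shNT, at 4.26, 4.59 and 3.46 with shMBNL1-64 and at 4.07, 4.62 and 5.67 with shMBNL1-65. Every knockdown library lay below every control. The log2 difference was -1.34 ± 0.14 (SE) with shMBNL1-64 (adjusted p = 0.00562) and -1.17 ± 0.15 with shMBNL1-65 (adjusted p = 0.0189). MCM3, a subunit of the ring, was at 54.0, 57.2 and 51.4 RPKM with shNT, 29.8, 30.2 and 28.4 with shMBNL1-64 and 35.2, 35.8 and 38.1 with shMBNL1-65. It was called with shMBNL1-64 (-0.86 ± 0.10), and with shMBNL1-65 the difference of -0.56 ± 0.10 passed at an adjusted p of 0.0426 but not the fold limit. MCM4 and MCM6 were called with both hairpins, and MCM7 with shMBNL1-65, at -0.60 ± 0.10. MCM2 and MCM5 of the same ring had values of -0.24 and -0.07 with shMBNL1-64 and -0.44 and -0.36 with shMBNL1-65, and were not called. CDT1, which works with CDC6, had values of 0.28 and -0.19 and was not called.

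Members of the helicase activators and of the copying machinery were called as well. CDC45 was at 12.1, 13.7 and 13.1 RPKM with shNT, 7.42, 6.95 and 5.46 with shMBNL1-64 and 5.78, 6.18 and 4.95 with shMBNL1-65. These ranges did not overlap, and the differences were -0.88 ± 0.13 (adjusted p = 0.0150) and -1.08 ± 0.11 (adjusted p = 0.0164). MCM10 was called with both hairpins, and GINS1 and GINS4 with shMBNL1-65. PCNA was at 305, 286 and 218 RPKM with shNT, 187, 185 and 170 with shMBNL1-64 and 138, 143 and 156 with shMBNL1-65. It was called with shMBNL1-65 (-0.87 ± 0.14), and with shMBNL1-64 the difference was -0.56 ± 0.14 (adjusted p = 0.0494), short of the fold limit. Among the clamp loader subunits, RFC3 and RFC4 were called with both hairpins, RFC5 with shMBNL1-65, and RFC1 and RFC2 with neither. POLE2, an accessory subunit of polymerase epsilon, was called with both hairpins at -0.74 and -0.70, whereas its catalytic partner POLE had values of -0.12 and -0.36 and was not. PRIM1, the primase that starts each fragment, was called with shMBNL1-64 (-0.77 ± 0.15). POLD1 was at 21.8, 26.4 and 44.2 RPKM with shNT, 45.8, 43.3 and 40.4 with shMBNL1-64 and 36.7, 31.0 and 32.1 with shMBNL1-65. Its groups overlapped, and the differences of 0.53 ± 0.23 (adjusted p = 0.143) and 0.17 ± 0.24 were not called.

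In nucleotide supply, TYMS, which makes thymidylate, was at 50.5, 54.5 and 42.3 RPKM with shNT, 32.0, 28.6 and 25.9 with shMBNL1-64 and 22.4, 21.5 and 23.9 with shMBNL1-65. The knockdown libraries were all below the controls, with differences of -0.75 ± 0.13 and -1.08 ± 0.12. TK1, the thymidine salvage kinase, was called at -0.68 ± 0.14 and -0.60 ± 0.16, and RRM1 at -0.62 ± 0.16 and -0.71 ± 0.17. Among the G1/S regulators, CCNE2 was at 7.78, 7.80 and 5.22 RPKM with shNT, 2.96, 2.36 and 1.96 with shMBNL1-64 and 2.13, 2.29 and 2.54 with shMBNL1-65. That is 35% and 33.5% of the control mean, or -1.20 ± 0.17 and -1.24 ± 0.15. CLSPN, the checkpoint adaptor claspin, was called at -0.79 and -0.98, and CHAF1B, a subunit of the histone chaperone CAF-1, at -0.60 and -0.62. E2F1 itself was at 1.84 to 3.25 RPKM with shNT and at 2.31 to 2.84 with either hairpin, and was not called (0.05 ± 0.16 for each). All knockdown libraries were below all controls for 27 members with shMBNL1-64 and 34 with shMBNL1-65, against 17.5% and 9.89% of genes tested.

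**Figure D2:**
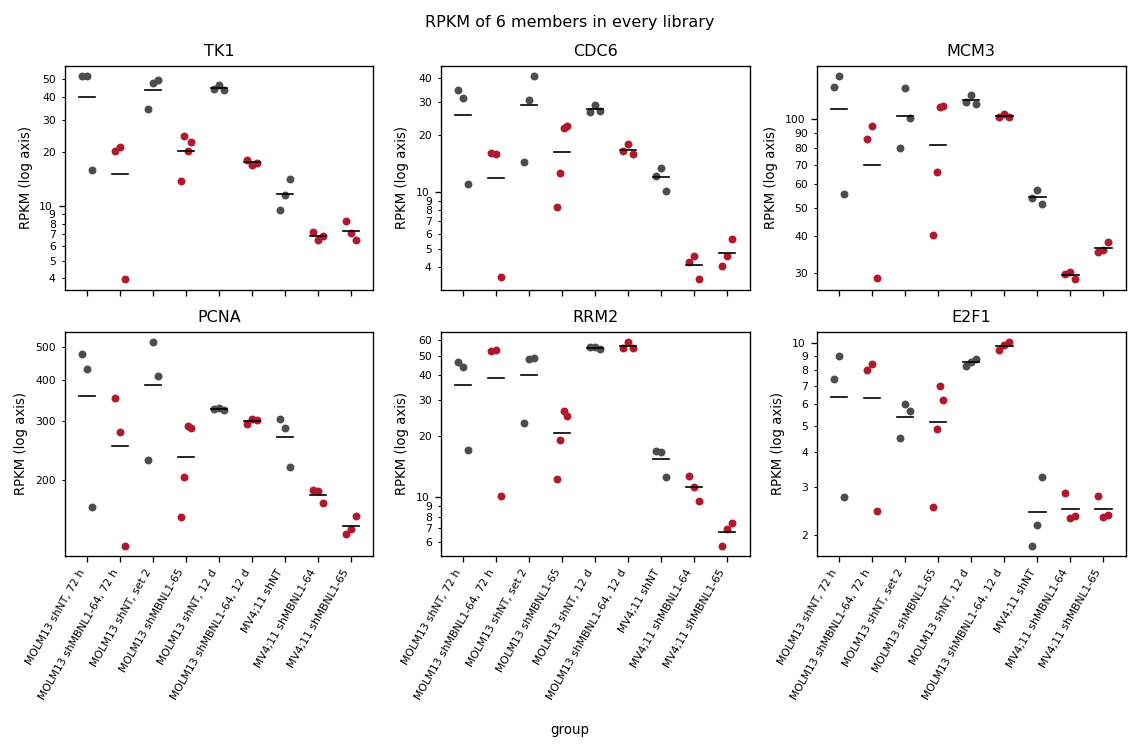
RPKM (vertical, log axis) of 6 members by group (horizontal). Points are libraries, grey for shNT and red for knockdown, and bars are means. TK1 lies below its controls in both MOLM13 sets without a low replicate 3, whereas E2F1 overlaps its controls in all groups but the 12-day one.

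The hairpins were compared with each other in MV4;11 without using the controls. RRM2, the regulated subunit of ribonucleotide reductase, was at 12.7, 11.2 and 9.55 RPKM with shMBNL1-64 and at 5.76, 6.92 and 7.46 with shMBNL1-65, where shNT had 16.9, 16.6 and 12.6. It was higher with shMBNL1-64 by 0.66 ± 0.12 (adjusted p = 0.00533). RRM2 was the only member called, against 1.55% of 10227 genes called higher. It was not called when replicate 1 of either hairpin was left out. At an adjusted p under 0.05, 8 members were higher with shMBNL1-64 (RRM2, CDT1, POLD1, TYMS, PCNA, MCM5, LIG1 and MCM7, from 0.22 to 0.66), against 9.44% of genes. MCM3 was lower with shMBNL1-64, by -0.29 ± 0.07.

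In MOLM13 after 72 h of selection, the members were lower with shMBNL1-64 within each numbered pair of libraries, but the unpaired test did not show it. Deviations from the group means were shared by libraries of the same number, with correlations across genes of 0.86, 0.81 and 0.89, so a fit with the replicate number as a block is given beside the unpaired one. In the unpaired fit no member was called, none passed an adjusted p of 0.05 and none had an unadjusted p under 0.05 (limma), against 1.09%, 0% and 4.42% of 10289 genes lower by these rules. All 42 estimates were below 0, with a median of -0.45 where all genes had -0.00. In the paired fit, which leaves the estimates as they are, 13 members were called lower and 30 passed the adjusted p, all lower, against 3.28% and 14.1% of genes. With replicate 3 left out on both sides and no pairing, 8 members were called. The share of all genes called in that fit was not computed. Within all 3 numbered pairs 36 of 42 members were lower, where 32.9% of genes were. The groups themselves overlapped for every member, against 8.24% of genes with no overlap and the knockdown lower.

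TK1 fell the furthest. It was at 52.2, 52.2 and 15.9 RPKM with shNT and at 20.1, 21.2 and 3.94 with shMBNL1-64, numbers 1 to 3 in order. Replicate 3 was low in both groups, and in each pair the knockdown library was lower. The difference was -1.46 ± 0.12 in the paired fit (adjusted p = 0.00664) and -1.46 ± 0.73 in the unpaired one (adjusted p = 0.583). The gene lies on chromosome 17 from 76170172 to 76183314, minus strand, in GRCh37. CDC6 was at 34.6, 31.5 and 11.0 RPKM with shNT and at 16.2, 15.97 and 3.55 with shMBNL1-64, a difference of -1.13 ± 0.11 in the paired fit. The other called licensing factors were MCM2 to MCM6, from -0.62 for MCM5 to -0.87 for MCM6. CDC45 (-0.83), MCM10 (-0.67), POLE2 (-0.67), PRIM1 (-0.66), RFC3 (-0.65) and CHAF1B (-0.64) completed the calls. RRM2 was at 46.7, 43.9 and 17.1 RPKM with shNT and at 52.4, 53.0 and 10.2 with shMBNL1-64, higher in pairs 1 and 2 and lower in pair 3, and was not called (-0.09 ± 0.20). The members closest to 0 were CHAF1A, the other CAF-1 subunit listed here (-0.00), and E2F1 (-0.04).

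**Figure D3:**
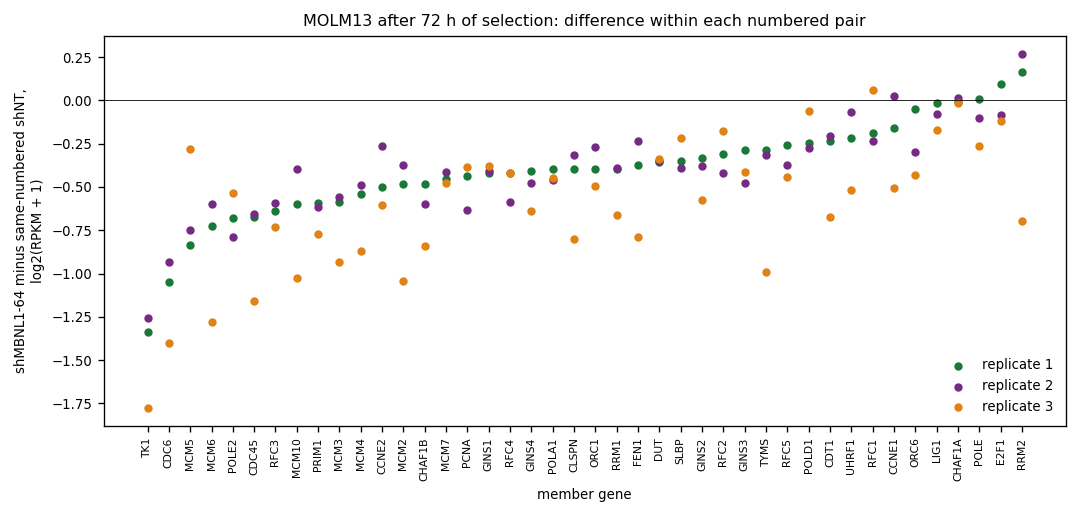
Difference between shMBNL1-64 and the same-numbered shNT library (vertical, log2(RPKM + 1)) for each member (horizontal, ordered by pair 1) in MOLM13 after 72 h. Colors are replicate numbers; TK1 is lowest and CDC6 next in all 3 pairs, and RRM2 is above 0 in pairs 1 and 2 and below 0 in pair 3.

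In MOLM13 with shMBNL1-65, whose knockdown of MBNL1 was the weakest, 41 of 42 estimates were below 0 but few passed a test. TK1 was at 34.5, 47.8 and 49.3 RPKM in shNT libraries a, b and c and at 13.7, 24.3, 20.1 and 22.6 in the knockdown, with no overlap. MCM7 was at 108, 135 and 135 against 52.5, 85.3, 86.0 and 85.6. These were the 2 members called, at -1.10 ± 0.21 and -0.72 ± 0.20, against 1.48% of 10156 genes called lower. Their adjusted p-values were 0.143 and 0.161, and no member passed the adjusted limit, which 0.00985% of genes did on the lower side. At an unadjusted p under 0.05 (limma), 20 members were lower, against 6.04% of genes. The median member was -0.57 where all genes had 0.05, and 9 members had no overlap with the controls, against 5.75% of genes. UHRF1, a chromatin protein that follows the fork, was the member above 0 (0.17).

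The division of these libraries moved the count. With it as a covariate, added after the data were seen, 8 members were called lower, against 1.83% of genes: TK1 (-1.04), RRM2 (-0.76), RRM1 (-0.72), CDC45 (-0.67), MCM7 (-0.66), GINS4 (-0.66), ORC1, the largest ORC subunit (-0.64), and TYMS (-0.63). None passed the adjusted limit, which 0.0394% of genes did. Within shNT a and knockdown replicates 1 and 2, 41 members were lower, with a median of -0.45. Within shNT b and c and replicates 3 and 4, 37 were lower, with a median of -0.46. Without shNT library a 12 members were called, without b or without knockdown replicate 1 it was 1, and without knockdown replicate 2 it was 4. With the shNT libraries of the 72 h set as controls, none was called. The share of all genes called was not computed for the fits that left out a library or changed the controls.

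At 12 days the same line with shMBNL1-64 showed large differences at TK1 and CDC6 and small ones elsewhere. TK1 was at 44.4, 46.4 and 43.5 RPKM with shNT and at 17.9, 17.0 and 17.4 with shMBNL1-64, or 38.9% of the control mean. The groups were far apart relative to their spread, with a difference of -1.31 ± 0.04 (adjusted p = 1.03e-06). CDC6 was at 26.5, 29.0 and 26.9 against 16.6, 17.9 and 15.9, a difference of -0.68 ± 0.06 (adjusted p = 6.64e-05). These 2 were the members called, against 2.25% of 10094 genes called lower. The libraries of this set lay close together, and 20 members passed an adjusted p of 0.05 on the lower side, where 19.3% of genes did. MCM5 (-0.48 ± 0.05), CCNE2 (-0.45 ± 0.06), CDC45 (-0.32 ± 0.05) and RRM1 (-0.29 ± 0.04) led the others. E2F1 passed on the higher side, at 9.44, 9.82 and 10.1 RPKM against 8.27, 8.53 and 8.78 (0.18 ± 0.04, adjusted p = 0.0105), where 30.4% of genes did. RRM2 stood at 54.5, 58.3 and 54.4 RPKM with the knockdown and 54.8, 55.0 and 54.2 with shNT, and was not called. The median member was -0.13 against 0.04 for all genes, and 27 members had no overlap with their controls, against 23.7% of genes.

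**Figure D4:**
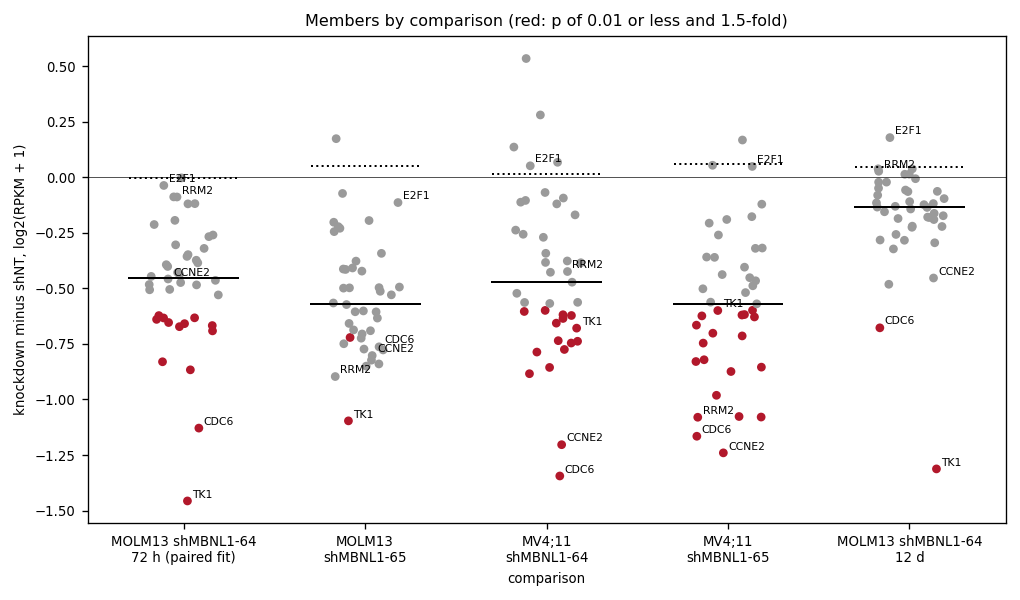
Difference between knockdown and shNT (vertical, log2(RPKM + 1)) for each member in 5 comparisons (horizontal), with 42 points in MOLM13 and 41 in MV4;11. Red points were called, and the solid and dotted bars are the medians of the members and of all genes; TK1 stands apart at 12 days, at -1.31 where the median is -0.13.

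Whether the effect changed between sets was tested as a difference of differences. Between 12 days and 72 h with shMBNL1-64, no member was called in the unpaired fit, and none had an unadjusted p under 0.05, against 0.397% of 10583 genes called. With the replicate number as a block, POLE2 (0.66 ± 0.10), PRIM1 (0.60 ± 0.10) and MCM6 (0.69 ± 0.17) were called, each nearer to its control at 12 days, against 1.54% of genes. Same-numbered libraries did not deviate together at 12 days (correlations of -0.11 to -0.05). Per the study's methods, the 12-day libraries were sequenced on a NovaSeq and the earlier ones on a HiSeq. Harvest time, instrument and set of libraries cannot be told apart here. Between MV4;11 and MOLM13 at 72 h with shMBNL1-64, no member was called in the unpaired fit, against 0.653% of 10714 genes, and with the block CCNE2 (-0.75 ± 0.15) and TK1 (0.78 ± 0.20) were, against 2.44%. The estimated fall of CCNE2 was larger in MV4;11 and that of TK1 in MOLM13, but neither passed an adjusted p of 0.05 (0.132 and 0.223, limma). Same-numbered shNT and shMBNL1-64 libraries of MV4;11 did not deviate together either (correlations of -0.08 to 0.05).

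The lines themselves differed without a knockdown of MBNL1 in the shNT sets compared. In the shNT libraries, 33 of 42 members were called lower in MV4;11 than in the second MOLM13 set, against 7.62% of 10222 genes, and 32 passed the adjusted p, against 6.66%. The median member was -0.999 where all genes had -0.05. CDT1 was at 2.94, 4.52 and 8.93 RPKM in MV4;11 and at 36.3, 19.5 and 19.8 in MOLM13 (-2.07). TK1 was at 9.49, 11.5 and 14.04 against 34.5, 47.8 and 49.3 (-1.82 ± 0.21), and CDC45 at 12.1, 13.7 and 13.1 against 36.1, 49.3 and 53.2 (-1.74 ± 0.19). CCNE1 was level, at 12.2 to 14.4 RPKM against 6.73 to 19.1 (0.01). Line and set of libraries cannot be told apart in this comparison. Outside it, shNT replicate 3 of the MOLM13 72 h set had a member mean of 3.60 on the log2(RPKM + 1) scale. The MV4;11 shNT libraries lay at 3.67 to 3.77, and the other MOLM13 shNT libraries of all sets at 4.39 to 5.04.

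Other genes of the pathway are given by count. Of 34 further replication genes, 4 were called lower in MV4;11 with either hairpin and none higher, 3 in the MOLM13 72 h paired fit, 3 with shMBNL1-65 and none at 12 days. Over all genes tested, 2.62% (shMBNL1-64) and 1.85% (shMBNL1-65) were called lower in MV4;11. In MOLM13 it was 3.28% in the 72 h paired fit, 1.48% with shMBNL1-65 and 2.25% at 12 days. DSCC1, part of an alternative clamp loader, was called in all of these but the last, from -0.75 to -1.02. Among further G1/S regulators, CDKN1A, the cyclin-dependent kinase inhibitor p21, was called higher with shMBNL1-64 in MOLM13 at 72 h (80.2 against 44.7 RPKM, 0.80 ± 0.07, paired) and in MV4;11 (84.9 against 53.4, 0.70 ± 0.20). At 12 days it was at 7.81 against 9.30 RPKM (-0.23 ± 0.04). CCNA2, cyclin A, was called lower in each of these comparisons except the 12-day one, and so with shMBNL1-65 in both lines. In nucleotide supply, SAMHD1, which breaks down dNTPs, was called lower with shMBNL1-65 in MV4;11 (13.8 against 50.2 RPKM, -1.76 ± 0.20) and in MOLM13 (11.3 against 33.0, -1.44 ± 0.31), whereas with shMBNL1-64 in MV4;11 it was at 46.1. The hairpins differed there by 1.67 ± 0.10 (adjusted p = 3.59e-05).

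The 20 genes of G2/M and mitosis, which peak later in the cycle, had estimates below 0 for 20, 19, 20, 20 and 16 genes, in the order of 72 h, shMBNL1-65 in MOLM13, shMBNL1-64 and shMBNL1-65 in MV4;11, and 12 days. Of them 11 were called lower in the MOLM13 72 h paired fit, 13 with shMBNL1-65 in MOLM13, 7 and 4 in MV4;11 with shMBNL1-64 and shMBNL1-65, and none at 12 days, where CENPF, a kinetochore protein, passed an adjusted p of 0.05 on the higher side (8.93 against 7.60 RPKM, 0.21 ± 0.07). Over all genes tested, 3.28%, 1.48%, 2.62%, 1.85% and 2.25% were called lower, in the same order. The medians of the 20 genes were -0.64, -0.94, -0.53, -0.45 and -0.11, where the members had -0.45, -0.57, -0.47, -0.57 and -0.13. CDK1, the mitotic kinase, was called in each but the 12-day comparison, from -0.88 to -0.98. In MOLM13 with shMBNL1-65 this list differed between the library divisions, with a median of -0.33 within shNT a and replicates 1 and 2 and -1.36 within the others. On the myeloid list of 9 genes, of which 8 were tested, the same 3 were called higher and the same 2 lower with shMBNL1-64 in MOLM13 at 72 h (paired) and at 12 days. MPO, a granule enzyme, differed by 2.58 ± 0.08 and 3.22 ± 0.10, LYZ, lysozyme, by 1.53 ± 0.12 and 2.24 ± 0.07, and CSF1R, a growth factor receptor, by 0.89 ± 0.12 and 0.89 ± 0.07. FLT3, another such receptor, differed by -1.08 ± 0.18 and -0.80 ± 0.05, and ITGAM, an integrin, by -0.66 ± 0.11 and -1.66 ± 0.11. In MV4;11, CSF1R (0.87 ± 0.10) and MPO (0.99 ± 0.20) were called higher with shMBNL1-64, and LYZ was called lower with it (-0.69 ± 0.17) and with shMBNL1-65 (-1.74 ± 0.17). With shMBNL1-65 in MOLM13 none of this list was called or had an unadjusted p under 0.05 (limma). The part of these genes in the members' differences was not tested.

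Splicing of the members moved little. Splicing was measured as PSI, the percent of junction reads that support an event, and the limits for a call were a limma p of 0.01 and a change of more than 10 points. The called events lay in RFC4 after 72 h (2 of 247 tested), POLE with shMBNL1-65 in MOLM13 (3 of 246), CHAF1A in MV4;11 with shMBNL1-64 (1 of 237), none with shMBNL1-65 in MV4;11 (0 of 234) and in RFC4, POLE2 and RFC5 at 12 days (5 of the events tested there). Over all events, 1.73%, 1.28%, 1.64%, 0.866% and 2.34% were called, in the same order. No member event reached an adjusted p of 0.05, and 7, 13, 10, 9 and 24 had an unadjusted p under 0.05 (limma), in the same order, against 7.69%, 7.76%, 7.73%, 5.57% and 10.6% of all events. The median absolute difference of member events was 0.930 to 1.62 points, and that of all events 1.76 to 2.14. Events of a cluster mirror each other and are not independent, so these calls stand for 1, 1, 1, 0 and 3 clusters.

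RFC4, a clamp loader subunit, was the member called in more than 1 comparison. Its non-coding first exon can end at a pair of donor sites 135 bases apart, both joined to the exon that holds the start codon. The sites are shown on the minus strand of GRCh37, with the last 10 exon bases followed by 15 intron bases and the donor GT in capitals.
RFC4 upstream donor (chr3:186524199-186524223): atcagtgatcGTaagtctcctgggc
RFC4 downstream donor (chr3:186524064-186524088): aggctaactgGTaacctgctggagg
Use of the downstream donor was 83.6%, 78.2% and 86.8% with shNT after 72 h and 65.36%, 50% and 60% with shMBNL1-64. The groups did not overlap, with a difference of -24.4 ± 4.90 points (SE, adjusted p = 0.287). At 12 days it was 76.5%, 78.8% and 77.3% with shNT and 64.0%, 53.9% and 62.7% with shMBNL1-64, a difference of -17.3 ± 3.08 points (adjusted p = 0.137). In MV4;11 the differences were -8.33 ± 4.46 points with shMBNL1-64 and -7.60 ± 7.78 with shMBNL1-65, and in MOLM13 with shMBNL1-65 it was 0.697 ± 3.64. None of these last was called. RFC4 RNA was not called at 12 days (0.01) and was -0.47 at 72 h.

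**Figure D5:**
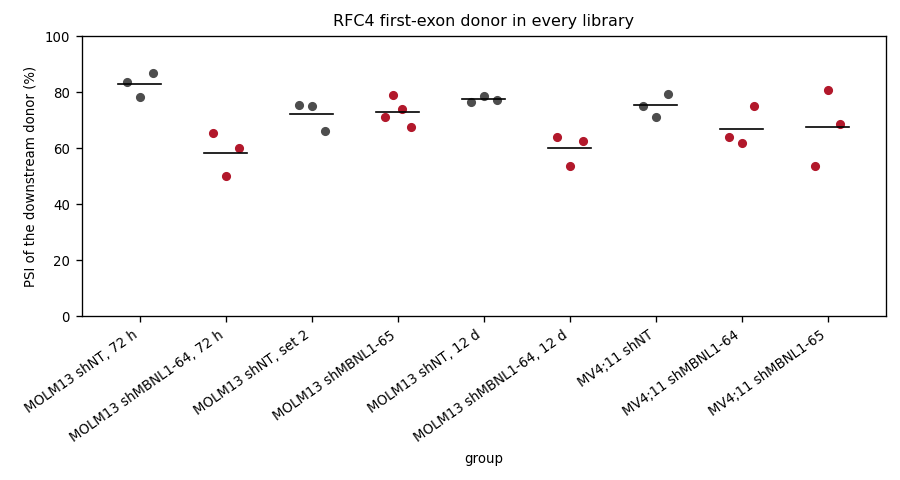
PSI of the downstream donor of RFC4 (vertical, percent, from 0 to 100) by group (horizontal). Points are libraries, grey for shNT and red for knockdown, and bars are means; the MOLM13 shMBNL1-64 libraries lie between 50% and 65.36%, below their controls at 76.5% to 86.8%.

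The other called events were seen in 1 comparison each. In POLE, reads across both ends of a 73-base intron rose with shMBNL1-65 in MOLM13. The intron is shown with its end bases in capitals (GRCh37, minus strand).
POLE intron (chr12:133245324-133245396): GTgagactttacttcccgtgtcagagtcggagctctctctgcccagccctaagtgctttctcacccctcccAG
Reads into its upstream end were 0% in the 3 shNT libraries and 12.8%, 17.0%, 15.7% and 10.0% in the knockdown (13.9 ± 1.77 points, adjusted p = 0.145). In the shNT libraries of the other MOLM13 sets the same event was at 7.0%, 0% and 0% after 72 h and at 9.1%, 6.8% and 14.1% at 12 days. For this end, controls of the other sets thus reached values in the knockdown's range. All MV4;11 libraries were at 0%. Reads into the downstream end were 0% with shNT and 17.1%, 15.2%, 33.8% and 28% in the knockdown (23.5 ± 5.04 points, adjusted p = 0.342). There the shNT libraries of the other MOLM13 sets reached at most 12.7%. Against those reads, splicing of the intron was 100% with shNT and 58.9% to 73.9% in the knockdown (-32.1 ± 3.84 points, adjusted p = 0.135). The other MOLM13 shNT libraries lay between 76.4% and 100%. In POLE2, inclusion of a 78-base coding exon, 26 codons, was 92.6%, 86.7% and 88.6% with shMBNL1-64 at 12 days and 75.8%, 80.2% and 78.7% with shNT (11.1 ± 2.07 points, adjusted p = 0.153).
POLE2 exon (chr14:50141068-50141145, GRCh37, minus strand): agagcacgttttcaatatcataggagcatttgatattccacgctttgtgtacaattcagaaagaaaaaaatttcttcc
At 72 h the values were 90.2% and 73.9% against 74.4% and 67.4%, with no value in replicate 3 of either group, and the event was not called (11.2 ± 8.06 points). An alternative acceptor of RFC5 rose from 9.05% to 22.2% at 12 days (13.1 ± 2.98 points). At 72 h it was at 5.20% against 13.8% and was not called (-8.58 ± 12.1 points), and the acceptor lies beyond the annotated end of the gene in GRCh37. In CHAF1A, splicing of an intron, rather than its retention, was at 100% in all 3 shMBNL1-64 libraries of MV4;11 and at 85.2%, 92.9% and 88.9% with shNT (11.0 ± 2.11 points).

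Over the 5 comparisons of a knockdown with shNT, 22 of 42 members were called lower in at least 1 unpaired fit. All 22 were called in MV4;11, whose comparisons share their shNT libraries, and the MOLM13 unpaired fits added none. In MV4;11, 2.62% of all genes tested were called lower with shMBNL1-64 and 1.85% with shMBNL1-65. CCNE1, CDT1, CHAF1A, DUT, E2F1, FEN1, GINS2, GINS3, LIG1, ORC1, ORC6, POLA1, POLD1, POLE, RFC1, RFC2, SLBP and UHRF1 were called in none of the 5, nor in the paired 72 h fit. Among these 18, ORC1 was called only with the library division as a covariate. No member was called higher with a knockdown than with shNT. Estimates were below 0 wherever fitted for 32 members. In the GRCh37 annotation 9 members overlap a coding gene on the other strand, among them TYMS, RFC4, MCM7 and CCNE2, and 4 overlap one on the same strand, such as FEN1. The sources used do not say whether reads were counted by strand.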

How the data were processed

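Libraries were grouped from their labels, and 3 columns of the second MOLM13 shNT set, which carry no number, were used as that group. Per the submitters' processing notes, reads were aligned to hg19 (GRCh37) by STAR. The authors deposited RPKM per gene from AltAnalyze, in which 1 read appears to be added to every count. They also deposited PSI, a fraction from 0 to 1 of junction reads, from MultiPath-PSI. Both were used as deposited. Low RPKM values were whole multiples of a step in 100% of values (tolerance 0.01), which gave relative depth. No total read number was used, and depth is known only in relative terms.

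The gene test was limma 3.58.1 in R 4.3.3 on log2(RPKM + 1), kept to genes whose group mean reached 1 RPKM on at least 1 side, p-values were adjusted by Benjamini-Hochberg over all genes, and the 0.01 and 1.5-fold limits follow the study. Fold changes of low genes are understated on this scale. For PSI the same test used events measured in over 50% of a group's libraries, on both sides, and a limit of 0.1. Same-numbered libraries deviated together in MOLM13 at 72 h only, where replicate 3 stood apart in both groups, which led to the paired fit. Alternatives were another offset, no filter, rescaling, a joint fit, other limits, other controls and leaving out each library. The unpaired gene and PSI fits of knockdown against shNT were tested on simulated data, with noise drawn separately for each library. The paired fits, the differences of effects and the covariate fit were not. The UHRF1 row was matched through an older identifier.

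The labels do not say whether libraries of a group came from separate cultures, so p-values may measure technical spread. The members and gene lists were chosen with earlier results of these data known. Genes were named when called by either rule in a comparison or in a test of a difference, or when highest in their role, and other lists by up to 4 called genes with the lowest p. CDT1, RFC1, RFC2, POLE, CHAF1A, UHRF1 and the library values of RRM2 and E2F1 were added after values were seen.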

Additional observations from a re-analysis of the deposited data

Results flagged for a closer look

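In the 4 shMBNL1-65 libraries of MOLM13, 1 library lay far below the others for 4 of the 42 members. The low value was 20.2 RPKM for MCM2, 52.5 for MCM7, 12.0 for RFC4 and 53.6 for TYMS, each in replicate 1. Chance marks about 1 in 20 such groups if each gene is taken alone. Replicate 1 had the lowest mean over all members, at 3.61 on the log2(RPKM + 1) scale against 4.18, 4.48 and 4.43. The members rise and fall together, so the 4 are not independent and that rate cannot judge their count. The rule was not applied to all genes.

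Some members differed in effect between sets. In MV4;11, RRM2 was 0.66 higher with shMBNL1-64 than with shMBNL1-65 on the log2 scale. In the fits with the replicate number as a block, effects of shMBNL1-64 were compared between sets. The difference in effect in MOLM13, 12-day set minus 72 h set, was 0.66 for POLE2, 0.60 for PRIM1 and 0.69 for MCM6. Between MV4;11 and MOLM13 with shMBNL1-64 it was -0.75 for CCNE2 and 0.78 for TK1. In the unpaired fits these last 5 did not pass.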

How the results depend on the processing

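In the numbers of members called, a single fit over all 28 libraries gave 1 in MOLM13 at 72 h (0 as reported), 1 in MV4;11 with shMBNL1-64 (16), 0 in MV4;11 with shMBNL1-65 (20) and 1 at 12 days (2). Leaving out replicate 3 on both sides at 72 h gave 8. In MOLM13 with shMBNL1-65 (2), no filter gave 1, either adjusted rule 0, the shNT libraries of the 72 h set as controls 0 and the library division as a covariate 8. At 12 days the adjusted rule with no fold limit gave 21. The cause of these changes was not tested. Unless given above, the share of all genes called was not computed for these fits or for those below that leave out a library.

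With the replicate number as a block, 13 members were called at 72 h, and 3 and 2 in the differences between times and between lines (0 each without it). In MV4;11 and at 12 days same-numbered libraries did not deviate together (correlations of -0.66 to 0.05), and the block gave 16, 18 and 2 members. No paired analysis was possible for shMBNL1-65 in MOLM13 because its control columns carry no numbers.

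Leaving out each library in turn gave 0 to 1 members at 72 h, 1 to 12 for shMBNL1-65 in MOLM13, 11 to 21 and 15 to 22 in MV4;11, 2 at 12 days, 0 to 1 between the hairpins, 24 to 38 between the lines' controls and 0 in the differences of effects. For splicing events it gave 0 to 3 at 72 h, 2 to 4 for shMBNL1-65 in MOLM13, 0 to 2 and 0 to 3 in MV4;11, and 1 to 4 at 12 days. An adjusted p left 0 events in each comparison. A difference over 0.2, and likewise the block, left 0 events in MV4;11 with shMBNL1-64 and at 12 days.

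Members that passed a rule were recomputed in the unpaired comparisons other than 72 h, and none of these reversed, but calls were lost. Counting each member under each alternative, a call was lost in 38 of 198 values for shMBNL1-64 in MV4;11 and gained in 2. For shMBNL1-65 in MV4;11 it was lost in 48 of 242 and gained in 7. Losses were 7 of 26 for shMBNL1-65 in MOLM13, 1 of 231 at 12 days, 2 of 81 between the hairpins and 33 of 264 between the lines' controls. Members that passed none, and the members at 72 h, were not recomputed. Low members such as GINS3 carry the most counting error, and relative depth varies between libraries.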
